A study of Medicago truncatula with 160 samples.

Results

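Nodules that Sinorhizobium meliloti strains 230 and 335 formed on the Medicago truncatula line DZA were compared with nodules of 10 other strains on the same line. Strains 230 and 335 have neither C2 nor C3, which are groups of neighbouring genes on the symbiotic plasmid pSymA, whereas strains 121, 141, 182, 199, 204, 206, 278, 282, 283 and 89 have C2 and lack C3 (hereafter C2-only strains). Both clusters were singled out by the study for their relation to host biomass. Membership followed cluster content, and no plant expression value was used to choose a strain. Of the 160 nodule libraries, 80 were from DZA, and of these 8 belonged to strains 230 and 335 (4 plants each) and 39 to the C2-only strains (4 plants each, except 3 for strain 182). Each library held the RNA of the nodules of 1 greenhouse-grown plant that had received a single strain, and reads of both partners were counted against an A17 plant and a reference S. meliloti genome. The same 12 strains were also sequenced on the line A17, with 4 plants each.

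In a nodule the host supplies carbon and minerals to intracellular bacteria that fix nitrogen, and leghaemoglobins keep free oxygen low enough for nitrogenase to work. Nodules have a high demand for phosphate, and plants short of it make acid phosphatases, which release phosphate from organic compounds. Nitrate, when plentiful, holds back nodulation and fixation in legumes, and plants move it across membranes with dedicated transporters. No expression level of a gene is compared with that of another gene below, because transcript lengths were not used.

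The plant identifiers carry no names of their own in the deposited table. Functions were taken from the study's list of known symbiosis genes and from the Gene Ontology terms it assigned to genes of its coexpression modules, which together covered 613 of the 34224 plant genes tested on DZA. Those modules were built on DZA nodules that include the libraries used here, so genes of a module were grouped because they vary together. A shared direction among such genes is therefore not independent evidence of a direction for the function. The study also reported these modules for their correlation with shoot biomass, and C2 and C3 for their relation to it. The direction of module genes between the classes was thus partly set in advance. Shares over all genes are given beside the lists for scale and test nothing.

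The class labels were checked first against the bacterial genes themselves, as mean CPM, the counts of a gene scaled to a common library size, over the genes of a cluster. C2 genes were at 0 to 0.807 CPM in the 8 plants of strains 230 and 335 and at 2.94 to 77.9 CPM in the 39 plants of the C2-only strains. C3 genes did not exceed 0.166 CPM in the first class and 1.37 CPM in the second. Strains 230 and 335 also lacked transcripts of clusters C1 and C4, with at most 1.07 and 1.47 CPM, as did strains 278, 282 and 283, and strain 121 lacked those of C4. Loss of C2 therefore cannot be told apart from loss of C1 and C4 over most of this contrast, nor from any other gene shared by 230 and 335. C5 separated the pair, at 61.0 to 117 CPM in strain 230 and at most 0.0360 CPM in strain 335. Strains 282 and 283 have identical genomes, and strains 182 and 89 nearly so.

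Some libraries stood apart. Plant 3406, labelled strain 182 on DZA, had C3 genes at 48.8 CPM and C2 genes at 0 and was left out. In A17, plant 3514 labelled strain 89 had C3 genes at 63.5 CPM and no C2 signal, and plant 3373 labelled strain 121 had C3 genes at 37.7 CPM beside C2 genes at 18.02 CPM, so counts of calls and list medians on A17 are given with and without these 2 plants, and other A17 values with them. Plant counts per DZA library ranged from 13058159 to 52606073 for strains 230 and 335 and from 9730267 to 58578353 for the C2-only strains. In 5 of the 47 plants over 60% of counts were bacterial, among them plant 3451 of strain 230 (73.0%) and plant 3503 of strain 335 (69.8%), and results that rest on these plants are also given without them. Markers of infected cells, namely 9 leghaemoglobin-type genes and 6 genes of bacteroid maintenance, summed to 6226 to 13540 CPM (median 9795) in strains 230 and 335 and to 3068 to 16810 CPM (median 6474) in the C2-only strains. None of these 15 markers was at 0 throughout. The 3 chlorophyll-binding genes, which mark green tissue, summed to at most 2.28 and 4.95 CPM, so the nodule label held in both classes. In such bulk samples fewer cells of a type and less RNA per cell cannot be told apart.

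The bacterial share of the library did not separate the classes. S. meliloti counts made up on average 34.1% of all counts in strain 230 and 32.8% in strain 335, within the range of 20.3 to 51.0% over the C2-only strains. The class means were 33.4% and 33.4% ± 9.51 (SD over 10 strains), a difference of 0.0917 percentage points (exact two-sided permutation test over the 66 arrangements of strains, p = 1.0). Plants of the same strain spread far more widely, from 8.92 to 73.0% in strain 230 alone. Transcripts of the plastid genome (0.772 against 0.833% of plant counts, exact permutation p = 0.364) and of the mitochondrial genome (2.75 against 2.74%, exact permutation p = 0.879) were also alike within the spread between strains. Over these 3 shares every adjusted p was 1.0, and the smallest p the arrangements allow is 0.0152.

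**Figure D1:**
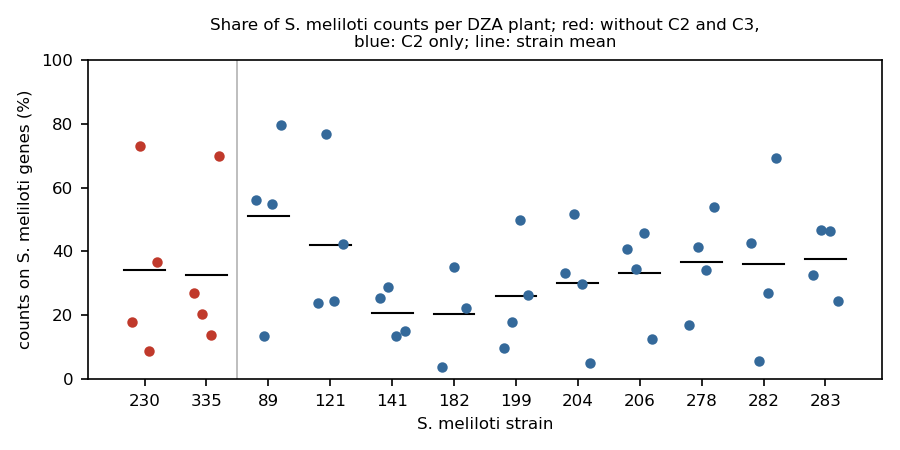
Share of counts on S. meliloti genes (%, vertical axis) in each DZA plant, by strain, with red points for strains 230 and 335, blue points for the C2-only strains and a line at each strain mean. The means of 230 (34.1%) and 335 (32.8%) lie inside the range of the other 10 (20.3 to 51.0%), and single plants of both classes reach about the same extremes.

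Plant gene expression was then compared between the classes with the strain as the unit, since the strain carries the clusters. Counts of the plants of a strain were summed, which gave 2 strains against 10, and log2 differences below are strains 230 and 335 minus C2-only strains. Of 34224 genes, 2 passed an adjusted p of 0.05 in edgeR's quasi-likelihood test with Benjamini-Hochberg adjustment (0.00584%), both with higher expression in strains 230 and 335, and none passed with lower expression. At an unadjusted p under 0.05 there were 1458 genes with higher expression (4.26%) and 1757 with lower expression (5.13%), together 9.39%, and DESeq2 called 179 and 342. The median log2 difference over all genes was −0.05. With 2 strains in a class the number of calls depended on single strains: it was 0 without strain 141, 204, 230, 283 or 335, 1 without strain 206, 4 without strain 199 or 282, 13 without strain 278, 19 without strain 121 and 99 without strain 89.

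A plant level fit of the same genes, 8 plants against 39, called 220 genes (0.643%), 94 with higher expression (0.275%) and 126 with lower expression (0.368%). At an unadjusted p under 0.05 the shares were 4.65% and 5.86%. The split into higher and lower depended on the method, with 219 and 784 in DESeq2, 293 and 156 in limma with strain as a random block, and 137 and 111 without the filter on low counts. Plants of a strain share that strain, so these p-values describe the plants and are too small for a statement on strains without C2 and C3. All 94 and all 126 had the same sign at strain level, and 218 of the 220 had an unadjusted strain level p under 0.05. The strain sums hold the same plants that chose these genes, so this follows from the choice and tests nothing. Within a class, plants of a strain were no more alike than plants of different strains on average over genes (consensus correlation −0.0312 in limma), and a fit with strain as a random block called 449 genes, 179 of them among the 220. That average does not speak for the called genes. A correlation below 0 narrows the standard error of a class difference, so the block fit is no stricter than the fit over plants. Only 21 of the 220 had any annotation. Among these 21 were 14 genes of 1 module, 10 of which carried a term for acid phosphatase activity, phosphate starvation or resistance, whereas 4 genes of another module had a nitrate transport or oxidant term. The number of the 613 annotated genes in each module is not given. These counts therefore have no scale and may follow which genes had annotation. Of the genes without annotation, MtrunA17_Chr1g0179831 was at 2.65 to 5.37 CPM in the 8 plants and at 8.29 to 72.0 CPM in the C2-only plants, so that the classes did not overlap (log2 −2.995, adjusted p = 9.85e-07 over plants, and −3.17 ± 0.51 SE, adjusted p = 0.0671 over strains). That plant level adjusted p was the smallest of all genes tested, so the separation follows from how the gene was picked. How many other genes separate in this way was not counted.

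Both genes that passed at strain level are without annotation. MtrunA17_Chr2g0290461 was at 83.5, 159, 222 and 165 CPM in the 4 plants of strain 230 and at 137, 134, 262 and 168 CPM in those of strain 335, against 39.9 to 153 CPM (median 72.6) in the C2-only plants. Every one of the 8 plants was above that median and 5 were above all 39. As strain sums, 188 and 204 CPM stood clear of the range of 73.2 to 106 CPM (log2 difference 1.15 ± 0.14 SE, adjusted p = 0.0329 over strains). The call was kept without the plants rich in bacterial RNA (log2 1.17, adjusted p = 0.0476), and lost without replicate 3 or 4, without strain 141, 204, 206, 230, 283 or 335, and with libraries scaled to one total before summing. MtrunA17_Chr3g1012569 had another form. Its strain sums were 3.68 and 3.13 CPM against 0.587 to 1.25 CPM (log2 1.98 ± 0.23 SE, adjusted p = 0.0296), but plant 3451 of strain 230 held 36.5 CPM and plant 3503 of strain 335 held 24.02 CPM, while their 6 companions lay between 0.807 and 1.69 CPM and the C2-only plants between 0 and 2.80 CPM. Of the 8 plants, these are the 2 in which most counts were bacterial. C2-only plants 3262, 3443 and 3468, with 76.7, 69.1 and 79.5% bacterial counts, did not exceed 2.80 CPM. The part of the bacterial share in these values was not tested. Without the plants of over 60% bacterial counts its log2 difference was 0.63 (adjusted p = 0.408).

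**Figure D2:**
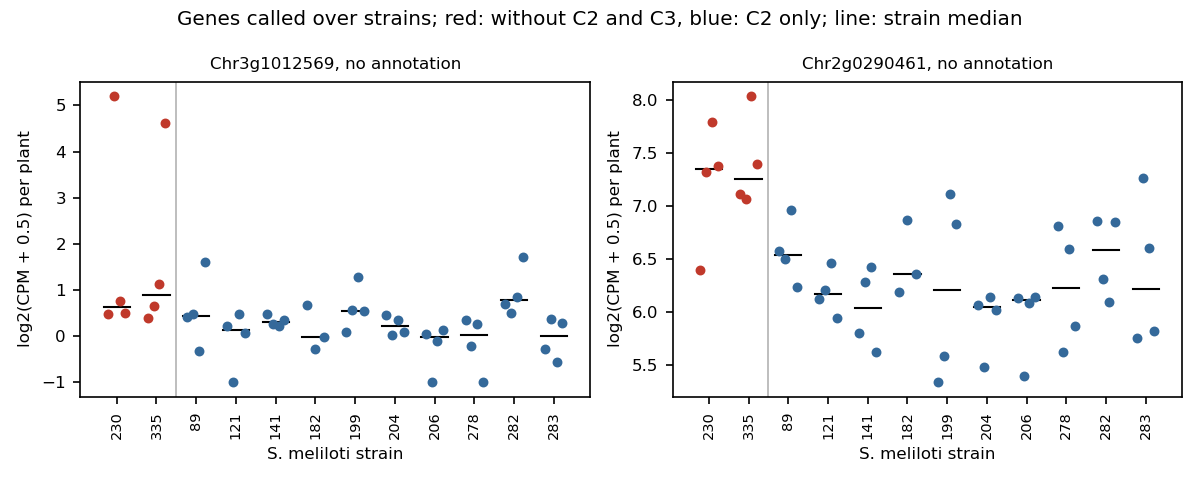
Expression per DZA plant of the 2 genes past the threshold over strains, on a log2(CPM + 0.5) axis, by strain, with red points for strains 230 and 335, blue points for the C2-only strains and a line at each strain median. In Chr2g0290461 (right; identifiers without their shared prefix) 5 of the 8 red points lie above every blue one, whereas in Chr3g1012569 (left) 2 red points, at 36.5 and 24.02 CPM, carry the difference.

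Acid phosphatase genes had mostly negative differences, and none passed the adjusted threshold over strains. Of 15 genes with acid phosphatase activity, 14 had a negative difference, 12 had an unadjusted strain level p under 0.05 with lower expression (beside 5.13% of all genes), and 0 with higher. The median log2 difference of the list was −1.08, where that of all genes was −0.05. In 7 of the 15, both strains lay below all 10 C2-only strains, which held for 2.90% of all genes. With DESeq2 5 passed over strains, and in the plant level fit of edgeR 6 fell, beside 0.368% of all genes. Without strain 335 the unadjusted count was 5, and without strain 230 it was 9.

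MtrunA17_Chr8g0375821 (acid phosphatase activity, with terms for iron binding) was at 23.2, 31.7, 27.1 and 25.3 CPM in the plants of strain 230 and at 21.9, 18.6, 19.5 and 17.1 CPM in those of strain 335, against 28.8 to 119 CPM (median 51.7) in the C2-only plants. The classes barely touched, since 7 of the 8 plants were below the lowest of the 39. The log2 difference was −1.18 (adjusted p = 1.26e-04) over plants and −1.21 ± 0.26 SE (adjusted p = 0.159) over strains.

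In MtrunA17_Chr6g0453731, another acid phosphatase gene, the plants of strain 230 held 0.221, 3.43, 0.372 and 0.637 CPM and those of strain 335 held 0.361, 0.487, 0.289 and 0.551 CPM, whereas the C2-only plants held 1.101 to 18.4 CPM (median 4.63). Only plant 3451 of strain 230, one of the plants rich in bacterial RNA, reached into that range. This was the largest of the acid phosphatase differences (log2 −3.32 ± 0.47 SE, adjusted p = 0.0525 over strains, and −2.94, adjusted p = 2.84e-04 over plants), and it passed the strain level threshold in 10 of 25 alternative settings. MtrunA17_Chr6g0479451 followed with 15.1, 34.02, 16.2 and 15.4 CPM in strain 230 and 5.51, 14.7, 9.46 and 6.61 CPM in strain 335, against 15.6 to 109 CPM (log2 −1.70, adjusted p = 0.00198 over plants). All 8 plants were under the C2-only median of 42.1 CPM, and again plant 3451 was the highest of its strain. The other 3 that fell over plants were MtrunA17_Chr8g0340821 (log2 −1.08), MtrunA17_Chr8g0375921 (log2 −0.99) and MtrunA17_Chr5g0419621 (log2 −0.91). The 9 that did not pass over plants had strain level log2 differences of −2.32 to 0.09. Leaving out 1 replicate of every strain left 2 or 3 of the 15 past the plant level threshold, and 4 passed without the plants of over 60% bacterial counts.

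Of 10 genes with the term cellular response to phosphate starvation, 9 had a negative difference, as had 18920 of all 34224 genes, and 7 had an unadjusted strain level p under 0.05, all lower (beside 5.13% of all genes), with a median log2 of −0.58. This count was 1 without strain 335, 3 without strain 230 and 4 without replicate 1 or 3. None passed over strains in edgeR, 2 did in DESeq2, and the same number fell over plants (beside 0.368% of all genes). MtrunA17_Chr4g0012631 was at 1.49, 2.26, 2.16 and 1.05 CPM in strain 230 and at 0.515, 1.07, 1.35 and 1.81 CPM in strain 335, against 1.12 to 81.4 CPM (median 13.4). Although the ranges overlapped at their edge, all 8 plants were far below the C2-only median (log2 −3.42, adjusted p = 1.55e-04 over plants, and −3.48 ± 0.92 SE, adjusted p = 0.237 over strains). The second, MtrunA17_Chr8g0368741, had a log2 difference of −2.41 over plants (adjusted p = 0.00826), with 6 of the 8 plants below all C2-only plants. The phosphate transporter MtPT5, from the list of symbiosis genes, had a strain level log2 difference of 0.25 ± 0.23 SE and did not pass (unadjusted p = 0.296).

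Further genes of the same module are given here as examples chosen after their values were seen, without a count over the module. MtrunA17_Chr1g0186601, with a transmembrane transporter term, was at 6.29, 3.73, 2.19 and 2.77 CPM in strain 230 and at 1.58, 0.918, 0.562 and 1.102 CPM in strain 335, against 3.01 to 64.1 CPM (median 16.9). Strain 335 lay wholly below the C2-only plants and strain 230 at their lower edge (log2 −3.13, adjusted p = 2.95e-04 over plants). A pair of further transporter genes, MtrunA17_Chr3g0114711 (log2 −2.01) and MtrunA17_Chr3g0114731 (log2 −2.87), and the dephosphorylation gene MtrunA17_Chr2g0330511 (log2 −3.18) also fell over plants. The 8 genes of iron binding, 3 of which are acid phosphatases as well, had a median log2 of −0.88, and the only 2 of them that fell over plants were acid phosphatases already named.

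Of the 6 genes with the term systemic acquired resistance, the whole-plant immunity that follows a local infection, all had a negative difference (median log2 −1.03), 3 at an unadjusted strain level p under 0.05 (beside 5.13% of all genes), and 2 fell over plants (beside 0.368%). MtrunA17_Chr7g0240451 was at 7.06, 0.0980, 1.103 and 1.43 CPM in strain 230 and at 2.27, 1.84, 0.852 and 0.945 CPM in strain 335, against 2.11 to 116 CPM (median 13.2). All but 2 of the 8 plants lay below every C2-only plant (log2 −3.30, adjusted p = 0.00897 over plants, and −2.97 ± 0.80 SE, adjusted p = 0.244 over strains). Its near neighbour by identifier, MtrunA17_Chr7g0240471, had a log2 difference of −2.76 (adjusted p = 0.00344 over plants), and reads of such adjacent genes may have been split between them. Neither remained past the plant level threshold without replicate 3 or without replicate 4.

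**Figure D3:**
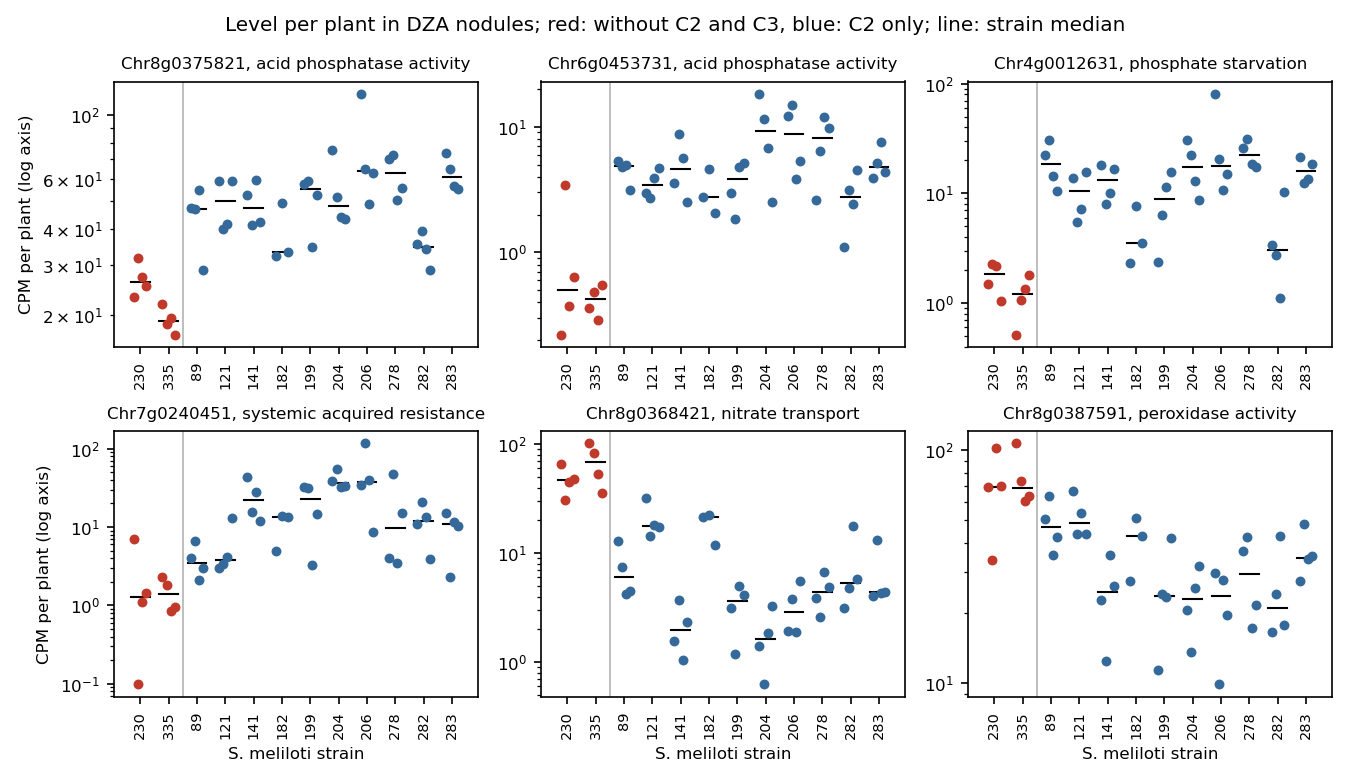
Expression of 6 genes per DZA plant in CPM (log axes), by strain, with red points for strains 230 and 335, blue points for the C2-only strains and a line at each strain median. The red points are low for the acid phosphatase, phosphate starvation and systemic acquired resistance genes and high for the nitrate transporter gene (Chr8g0368421, 30.6 to 102 CPM against 0.623 to 32.4 CPM) and the peroxidase gene.

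Nitrate transport had the opposite sign. All 3 genes with nitrate transporter activity had an unadjusted strain level p under 0.05 with higher expression (beside 4.26% of all genes), with a median log2 of 1.18. Over plants 2 of them rose (beside 0.275% of all genes). None passed the adjusted threshold over strains in edgeR, while 1 did in DESeq2. Without strain 335 the unadjusted count was 1.

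The main one was MtrunA17_Chr8g0368421, at 65.3, 30.6, 44.7 and 48.3 CPM in strain 230 and 102, 83.4, 53.0 and 35.98 CPM in strain 335. Its level in the 39 C2-only plants was 0.623 to 32.4 CPM (median 4.32), so 7 of the 8 plants were above all of them, and the remaining plant, 3451, was just inside. By strain, 59.0 and 86.0 CPM compared with 2.23 CPM in strain 141 up to 26.0 CPM in strain 121 (log2 3.002 ± 0.65 SE, adjusted p = 0.159 over strains, and 2.98, adjusted p = 5.02e-06 over plants). Its strain level log2 difference stayed between 2.71 and 3.34 over 25 alternative settings.

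MtrunA17_Chr4g0028551 was at 7.98, 2.75, 5.40 and 1.78 CPM in strain 230, at 7.11, 10.98, 7.87 and 5.75 CPM in strain 335 and at 0.688 to 9.02 CPM (median 2.24) in the C2-only plants. Here strain 335 was the higher of the pair and strain 230 lay within the C2-only range (log2 1.201, adjusted p = 0.0340 over plants). Of the 2 calls over plants, 1 was left without any one of the 4 replicates and without the plants of over 60% bacterial counts. The third gene, MtrunA17_Chr4g0028541, had a plant level log2 difference of 0.83 (adjusted p = 0.460). It is a near neighbour of MtrunA17_Chr4g0028551 by identifier, and reads may have been split between them. MtLATD/NIP, a nodule nitrate transporter from the symbiosis list, had a strain level log2 difference of 0.23 ± 0.26 SE.

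The list of peroxidase and oxidant detoxification genes, whose products consume hydrogen peroxide, also leaned upward. All 11 had a positive difference (median log2 0.52), 3 with an unadjusted strain level p under 0.05 (beside 4.26% of all genes), and 2 rose over plants (beside 0.275%). MtrunA17_Chr8g0387591 was at 69.3, 33.6, 102 and 70.1 CPM in strain 230 and at 107, 74.0, 60.2 and 63.6 CPM in strain 335, against 9.89 to 66.9 CPM (median 29.7). All 8 plants exceeded the C2-only median and 5 exceeded all 39 (log2 1.16, adjusted p = 0.00370 over plants, and 1.22 ± 0.30 SE, adjusted p = 0.206 over strains). MtrunA17_Chr3g0135811, from the oxidant detoxification term alone, had strain sums of 4.68 and 4.06 CPM against 0.992 to 2.47 CPM (log2 1.46 ± 0.26 SE, adjusted p = 0.0728 over strains, and 1.36, adjusted p = 0.0369 over plants). Neither of these passed over plants without replicate 1 or without replicate 4.

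**Figure D4:**
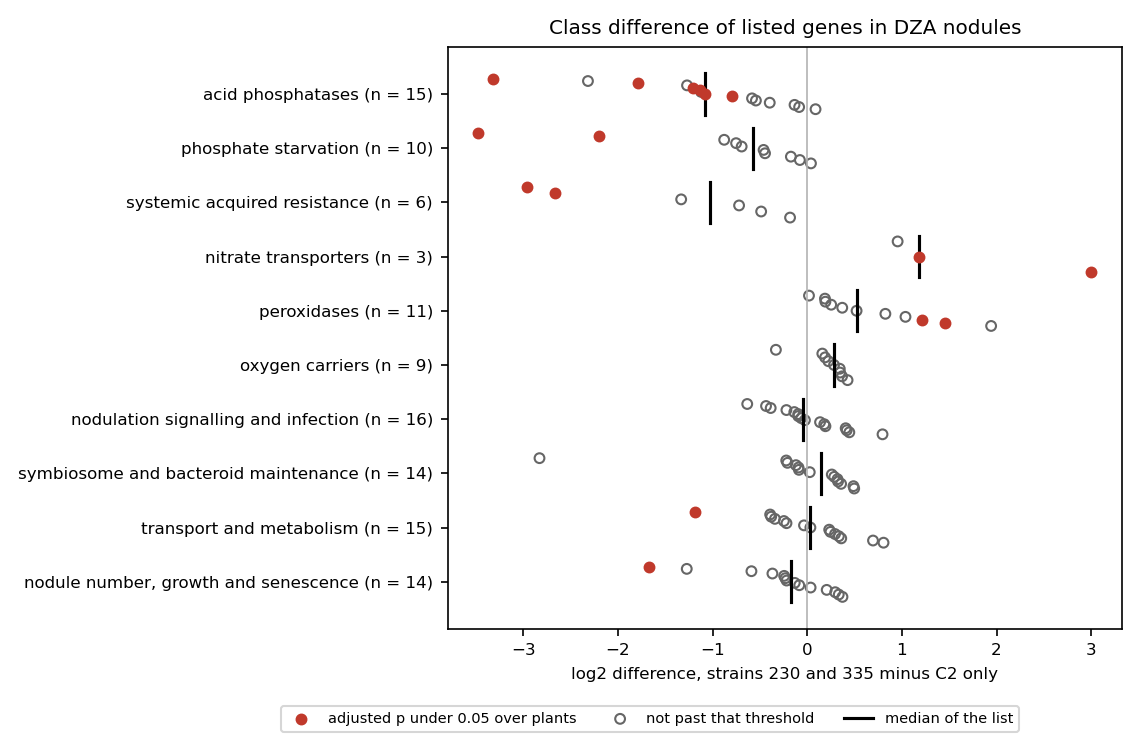
Strain level log2 difference (horizontal axis, strains 230 and 335 minus C2-only strains) of each gene in 10 lists, with a bar at the median of a list and filled points for genes past an adjusted p of 0.05 over plants. Medians lie at −1.08 for acid phosphatases, −0.58 for phosphate starvation, −1.03 for systemic acquired resistance and 1.18 for nitrate transporters, and near 0 for the symbiosis lists.

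None of the known symbiosis genes passed over strains in edgeR, and 2 fell over plants. Leghaemoglobin-type genes, annotated as oxygen carriers, had strain level log2 differences from −0.33 to 0.43 in 9 genes (median 0.28), and none reached an unadjusted p under 0.05. MtrunA17_Chr1g0148751 took up the most counts of the 9 in strain sums, which depends on transcript length as well. It was at 3132, 2077, 3100 and 2388 CPM in strain 230 and 3718, 4833, 3679 and 2307 CPM in strain 335, against 862 to 5392 CPM (median 1876). Although all 8 plants were above the median, each was inside the C2-only range (log2 0.37 ± 0.36 SE over strains, adjusted p = 0.813).

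Among 16 genes of nodulation signalling and infection, the median log2 was −0.04, with 7 positive and 9 negative differences. Of these, 4 had an unadjusted strain level p under 0.05, all higher (beside 4.26% of all genes), and none passed in either adjusted test. These 4 were MtDMI3, the calcium and calmodulin dependent kinase of the common symbiosis pathway (log2 0.44 ± 0.15 SE; chromosome 8, 16667901 to 16671672 in the RefSeq annotation of the A17 assembly), the actin nucleation subunit MtARP3 (log2 0.41), the symbiotic remorin MtSYMREM1 (log2 0.42) and the flotillin MtFLOT4 (log2 0.80). The last 3 act in infection thread growth or entry. MtFLOT4 was at 35.5, 52.5, 98.7 and 71.5 CPM in strain 230 and at 60.5, 48.9, 118 and 84.4 CPM in strain 335, against 19.2 to 140 CPM (median 38.1), so the plants were mostly in the upper part of a wide range. The transcription factor MtNIN, which starts nodule formation, had a log2 difference of −0.02 ± 0.19 SE, and its strain sums of 237 and 201 CPM lay within 185 to 305 CPM.

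Of 14 genes of symbiosome formation and bacteroid maintenance (median log2 0.14) none passed an adjusted test. MtRab7A1, a small GTPase of late endosomes and symbiosomes, and MtNAD1, which restrains defence in nodules, had log2 differences of 0.33 ± 0.13 SE and 0.49 ± 0.22 SE, each with both strains above all 10 C2-only strains, as in 3.14% of all genes. MtNCR169 and MtDNF2, needed for bacteroid persistence, had log2 differences of 0.36 and 0.32, with strain 335 just above the C2-only strains and strain 230 among them, and MtDNF1, a signal peptidase subunit through which the nodule peptides pass, had −0.09. The one outlying value in this list, −2.83 for MtCAS31, a dehydrin, came with an SE of 2.39 and followed C2-only plants of 0 to 185 CPM.

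In the transport and metabolism list (15 genes, median log2 0.03) MtMATE69, an efflux family transporter, fell over plants. It was at 2.73, 3.63, 2.56 and 3.03 CPM in strain 230 and 3.18, 2.25, 2.64 and 1.73 CPM in strain 335, against 2.15 to 18.9 CPM (median 5.99), all 8 plants under the median (log2 −1.27, adjusted p = 0.0294 over plants, and −1.18 ± 0.34 SE, adjusted p = 0.294 over strains). MtVTL8/SEN1, which carries iron to the bacteroids, was at 192, 49.8, 121 and 128 CPM in strain 230 and 200, 247, 147 and 94.9 CPM in strain 335, against 22.4 to 210 CPM (median 70.4). It was the only higher gene of this list with an unadjusted p under 0.05 (log2 0.81 ± 0.25 SE, unadjusted p = 0.00576, adjusted p = 0.319 over strains and 0.0666 over plants). Sucrose synthase MtSUCS1, through which sugar enters nodule metabolism, had a log2 difference of −0.39 ± 0.29 SE.

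Among 14 genes of nodule number, growth and senescence (median log2 −0.18) 1 fell over plants, the LjTRICOT-like gene, related to a peptidase that in Lotus acts in nodule formation. Its values were 15.7, 17.7, 7.40 and 22.1 CPM in strain 230 and 17.5, 16.0, 5.83 and 16.4 CPM in strain 335, against 5.96 to 168 CPM (median 36.2). All 8 plants were under the median, and both strain sums, 15.5 and 14.9 CPM, were under the lowest C2-only strain at 17.1 CPM (log2 −1.69, adjusted p = 0.0428 over plants, and −1.68 ± 0.45 SE, adjusted p = 0.244 over strains). MtNAC969, the only senescence marker used, was at 0 to 2.86 CPM (median 0.952) against 0.265 to 11.8 CPM (median 2.21), a difference that did not pass (log2 −1.27 ± 0.74 SE, unadjusted p = 0.107 over strains). Its part in the other differences was not tested. Lists for autophagy, translation, cell division, circadian rhythm, cytokinin signalling and starch had medians of −0.15 to 0.28 and no gene past the adjusted thresholds. Nor had peptidyl-prolyl isomerases (15 genes, median log2 −0.16), which the study placed in the same module as phosphorus turnover. Genes of auxin biosynthesis (4, all negative, median log2 −0.40) and of sulfate and sugar transport (4, median log2 0.16) had none either.

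Strains 230 and 335 were next compared with each other on DZA, with plants as replicates and the spread shared over the 12 strains. No gene passed (edgeR, smallest adjusted p = 1), 327 had an unadjusted p under 0.05, and DESeq2 called 6, all higher in strain 230. Most of the genes leading towards strain 230 rested on plant 3451. MtrunA17_Chr5g0421771 held 5830 CPM in that plant beside 50.5 to 73.8 CPM in its 3 companions, 6.54 to 91.2 CPM in strain 335 and 4.04 to 219 CPM in the C2-only plants, and the mitochondrial MtrunA17_MTg0490181 held 93.3 CPM beside 0.979 to 2.71 CPM. Both had been called over plants for the class as well, and their class differences turned negative without plant 3451 and its fellow high-share plants (log2 −0.45 and −0.12 over strains). Towards strain 335, MtrunA17_Chr2g0325711 had a steadier difference, with 18.1, 20.8, 27.3 and 35.1 CPM in strain 230 and 60.4, 49.2, 43.8 and 47.01 CPM in strain 335 (log2 −0.98 ± 0.26 SE, unadjusted p = 4.33e-04). Of the 94 genes that rose over plants, strain 335 lay above all 10 C2-only strains in 85 and strain 230 in 80, and of the 126 that fell the counts below were 113 and 104. These genes were chosen by that contrast, so the counts describe it and test nothing.

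The A17 libraries, which had no part in choosing these genes, allowed the same strains to be followed in another host line. At strain level no gene passed on A17 (edgeR, smallest adjusted p = 0.1), 1716 of 34843 genes had an unadjusted p under 0.05 (4.92%, with 2.38% higher and 2.55% lower), and DESeq2 called 341. Leaving out plants 3514 and 3373 also gave no call, with 1627 genes at an unadjusted p under 0.05. The acid phosphatases had a median log2 difference of −0.17 on A17 (2 of 15 lower at an unadjusted p under 0.05), phosphate starvation genes −0.19, systemic acquired resistance genes −0.37, nitrate transporters 0.55 and peroxidases 0.24. Without plants 3514 and 3373 these medians were −0.17, −0.19, −0.35, 0.53 and 0.24, and 1 acid phosphatase gene was lower at an unadjusted p under 0.05. The sign was negative on A17 in 14 of the 15 acid phosphatase genes and 9 of the 10 phosphate starvation genes, as on DZA, and in 16747 of 32289 genes tested on both hosts. Of the genes called over DZA plants, 92 of the higher and 123 of the lower were tested on A17, and 183 of these had the same sign there. The share of all genes with the same sign on both hosts is not given, so this count has no scale. Its sign also pools strains 230 and 335. Strain 335 lay above all 10 C2-only strains on A17 in 62 of the 92, and strain 230 in 1. Of the 123, strain 335 lay below all 10 in 96 and strain 230 in 4. The count therefore does not show that both strains kept the difference on A17. A test of the difference between hosts called no gene of 36778 (edgeR, smallest adjusted p = 0.391), with 1486 at an unadjusted p under 0.05 (4.04%, with 2.12% positive and 1.92% negative), and none without plants 3514 and 3373, with 1400. DESeq2 was not run for it. The acid phosphatase gene MtrunA17_Chr6g0453731 had the smallest p of its list in that test, with log2 differences of −3.32 on DZA and −0.56 on A17 (difference −2.58, unadjusted p = 2.13e-05, adjusted p = 0.391).

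**Figure D5:**
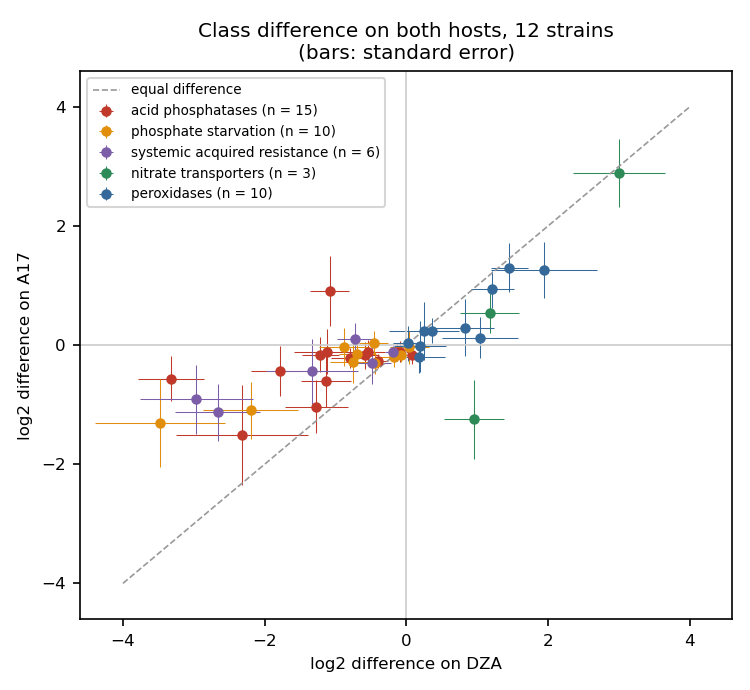
Class difference (log2, strains 230 and 335 minus C2-only strains, bars ± SE) on A17 (vertical axis) against DZA (horizontal axis) for the genes of 5 lists, with a dashed line where both are equal. Acid phosphatase and phosphate starvation genes lie mostly nearer to 0 on A17 (medians −0.17 and −0.19, against −1.08 and −0.58 on DZA), while the nitrate transporter gene with the largest difference is near the line (2.90 and 3.002). Its A17 value comes from strain 335 (26.2 to 62.7 CPM), since strain 230 (0.482 to 5.04 CPM) lay within the C2-only range (0 to 13.6 CPM).

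On A17 strains 230 and 335 were each set against the C2-only strains. Of the 92 genes that rose over DZA plants and were tested on A17, strain 335 lay above all 10 C2-only strains in 62 and strain 230 in 1. Of the 123 that fell on DZA, strain 335 lay below all 10 in 96 and strain 230 in 4. Over all genes with a higher value on DZA the shares on A17 were 16.0% for strain 335 and 6.35% for strain 230, and over all with a lower value 16.8% and 7.89%. Without plants 3514 and 3373 the counts were 64 and 1 among the genes that rose and 95 and 3 among those that fell. Without plants of over 60% bacterial counts they were 68 and 3, and 86 and 4. The label of each strain held on A17, where C5 genes were at 36.2 to 125 CPM in the plants of strain 230 and at most 0.0492 CPM in those of strain 335.

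In some genes strain 335 stood apart on A17 in all or most plants, and in others it did not. On A17 the nitrate transporter gene MtrunA17_Chr8g0368421 was at 41, 62.7, 26.2 and 51.6 CPM in strain 335 and at 4.76, 0.482, 5.04 and 2.79 CPM in strain 230, against 0 to 13.6 CPM (median 2.86) in the C2-only plants. All 4 plants of strain 335 were above every C2-only plant, as on DZA, and all 4 of strain 230 were among them. The acid phosphatase gene MtrunA17_Chr8g0375821 was at 13.5, 15.5, 15.2 and 23.9 CPM in strain 335 and at 85.8, 25.5, 31.2 and 26.5 CPM in strain 230, against 21.2 to 69.6 CPM (median 37.6). Thus 3 plants of strain 335 were below the whole C2-only range and none of strain 230 was. MtrunA17_Chr1g0186601, the gene with a transmembrane transporter term, was at 1.95, 5.67, 4.40 and 4.30 CPM in strain 335, all below the C2-only range of 10.5 to 53.9 CPM. In strain 230 it was at 49.4, 40.1, 21.3 and 25.0 CPM. In the acid phosphatase gene MtrunA17_Chr6g0453731, by contrast, strain 335 was at 1.95, 5.13, 20.7 and 4.90 CPM against 3.66 to 65.7 CPM, so that 3 of its 4 plants lay inside the C2-only range. The same held for 3 of 4 plants in MtrunA17_Chr6g0479451 and MtrunA17_Chr4g0012631, and for all 4 in the nitrate transporter gene MtrunA17_Chr4g0028551.

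A test of strain 230 against strain 335 on A17, added after these values were seen, called 2 genes of 34843 (edgeR, 0.00574%), both higher in strain 230, with 1831 genes at an unadjusted p under 0.05. The first was MtrunA17_Chr1g0186601 (log2 3.07 ± 0.42 SE, adjusted p = 1.80e-04) and the second is without annotation. Both were among the 126 that fell on DZA. DESeq2 called 246, while edgeR called 1 without the plants of over 60% bacterial counts, 0 to 3 without a replicate (0 without replicate 1, and 1 without replicate 2 or 4), 0 when fitted to the 8 plants alone, and 2 without plants 3514 and 3373. For MtrunA17_Chr8g0368421 this log2 difference was −3.73 ± 0.76 SE (adjusted p = 0.0939). Whether the pair differed more on A17 than on DZA was tested per gene, also after these values were seen, and no gene passed (edgeR, smallest adjusted p = 1, 733 at an unadjusted p under 0.05, and 728 without plants 3514 and 3373). For MtrunA17_Chr8g0368421 that difference between hosts was −3.17 ± 0.89 SE (unadjusted p = 6.85e-04, adjusted p = 1).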

How the data were processed

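Nodule RNA of both partners was sequenced with strand-specific libraries and quantified together by the authors with Salmon 1.4.0, and the deposited values are expected counts, summed per gene with correction for sequence and length bias. DZA reads were thus counted on the A17 reference. Here they were rounded, and a gene entered the tests of a host when 4 or more of its 80 libraries reached 10 counts. Plant and bacterial genes were separated, libraries were scaled by TMM, and edgeR 4.0.16 (R 4.3.3) was used for quasi-likelihood tests with Benjamini-Hochberg adjustment at 0.05. DESeq2 1.42.0 and limma 3.58.1 served as alternatives. CPM per plant and CPM of strain sums were scaled separately and are not interchangeable. Plant 3406 was left out. Replicates are separate plants, ordered by plant number.

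Genes to name were drawn from those with the smallest p in each direction (up to 12, filled from the plant level fit), called symbiosis genes, the leading genes of strain 230 against 335, and all nitrate transporter and oxygen carrier genes. Many of these, including most oxygen carriers, are not named one by one, and preference was given to genes with annotation. Further genes of the lists were named after their values were seen. The strains and lists were chosen with earlier results of these data known. Alternatives were other scaling, no filter, each replicate or strain left out, near-identical strains merged and the bacterial ratio as covariate. The tests were checked on simulated data.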

Additional observations from a re-analysis of the deposited data

Results flagged for a closer look

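Among 153 groups of plants or strains, 21 held a value far outside the rest of its group by Dixon's criterion, which chance alone does in about 1 in 20 groups. Plant 3451 of strain 230 accounted for many of them. It held 5830 CPM of MtrunA17_Chr5g0421771, 36.5 CPM of MtrunA17_Chr3g1012569, 34.02 CPM of the acid phosphatase gene MtrunA17_Chr6g0479451, and 8.33, 9.51, 11.8 and 12.8 CPM of unannotated genes of chromosomes 2, 4 and 6 and the mitochondrion whose other plants of strain 230 were near 0. One unannotated gene of chromosome 2 was low in it, at 14.7 CPM. Plant 3503 of strain 335 was high for unannotated genes of chromosomes 1, 2 and 3, at 3.46, 3.23, 0.472 and 0.630 CPM. In both plants most counts were bacterial, and the part of this in the values was not tested.

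Plant 3462 of strain 335 held 158 CPM of an unannotated gene of chromosome 1 and only 5.83 CPM of the LjTRICOT-like gene. Plant 3431 of strain 335 held 0.0375 CPM of a gene at 0 in its companions, and plant 3400 of strain 230 held 0.221 CPM of MtrunA17_Chr8g0366561. Among the C2-only strains, strain 89 stood apart for 2 unannotated genes (0.582 CPM, high, and 5.99 CPM, low), strain 283 for 1 (0.227 CPM), strain 278 for 1 (1.08 CPM) and strain 121 for 1 (0.476 CPM). In the library left out, DZA plant 3406 labelled strain 182, C3 genes averaged 48.8 CPM, where the 39 C2-only plants had 0 to 1.37 CPM.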

How the results depend on the processing

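The direction of 37 of the 48 genes drawn for naming held in all 25 alternatives, and 50 of 84 alternative counts of calls and shares stayed near their main value. Many of these 50 were comparisons with 0 calls that stayed at 0. The pooled count therefore says little about the strain and plant level calls on DZA, most of whose alternatives moved. The 2 strain level calls on DZA became 521 with DESeq2, 24 with plant 3406 kept, 34 with near-identical strains merged, 7 with the bacterial ratio as covariate, 0 to 14 without a replicate and 0 to 99 without a strain. The 220 plant level calls became 1003 with DESeq2, 449 with limma and a strain block, 124 without plants of over 60% bacterial counts and 30 to 100 without a replicate. On A17 DESeq2 called 341, and 0 to 1 were called without a replicate. Strain 230 against 335 gave 6 calls on DZA with DESeq2. On A17 its 2 calls became 246 with DESeq2, 1 without high-share plants, 0 with the 8 plants alone and 0 to 3 without a replicate. The cause of these shifts was not tested.

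Without plants of over 60% bacterial counts, the strain level log2 differences of 7 genes reversed, to −0.45 (MtrunA17_Chr5g0421771), −0.12 (MtrunA17_MTg0490181), and −2.30, −0.45, −0.19, −2.21 and −0.047 for unannotated genes. Over fits without a replicate or strain, MtrunA17_Chr5g0421771 ranged from −0.99 to 2.27, MtrunA17_MTg0490181 from −0.28 to 1.95, unannotated genes from −4.14 to 1.65, −0.93 to 2.29, −1.66 to 2.77, −6.90 to 1.35, −6.94 to 0.73, −6.58 to 1.09 and −7.14 to 0.12, and the oxygen carriers MtrunA17_Chr1g0170851 from −0.0003016 to 0.52 and MtrunA17_Chr5g0417631 from −0.018 to 0.32. No paired analysis was possible because replicate numbers only name plants. A fit without RNA genes was not run, since no identifier marks one.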
